A study of Mus musculus with 4 samples.

Results

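The small heat shock proteins of muscle and their partner Bag3 were followed in mouse hearts taken on the day of birth (postnatal day 0, P0). The 8 genes are Hspb1, Hspb2, Hspb3, Hspb6, Hspb7, Hspb8, Cryab and Bag3. They were taken by name from the 43346 Ensembl genes of the count files, and all 8 were found and passed the filter on low counts. The mutant hearts are labelled as double knockouts of MRTFA and MRTFB on a mixed strain background, and the control hearts as wild type on an ICR background, with 2 libraries in each group. The labels do not name the alleles, any Cre driver or any shared treatment, and genotype cannot be told apart from strain background. Whether each library is a separate animal is not stated for either group, so p-values measure only the spread between libraries, and that spread may be technical. MRTFA and MRTFB are coactivators of serum response factor (SRF), which drives actin and other muscle genes.

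Small heat shock proteins share an alpha-crystallin domain and hold unfolding proteins in a soluble state without using ATP. In muscle they bind desmin, filamin, titin and actin filaments. HSPB8 and BAG3 form a complex with HSP70 that passes damaged filamin to autophagy, a route called chaperone-assisted selective autophagy. In the heart, changes in CRYAB or BAG3 can cause myopathy with protein aggregates, and HSPB7 is needed to build thin filaments.

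Total counts were 27328195 and 16175259 in double knockout libraries 1 and 2, and 29460641 and 25205257 in wild type libraries 1 and 2. Of 16009 genes tested, edgeR's quasi-likelihood test with Benjamini-Hochberg adjustment placed 12 (0.075%) under an adjusted p of 0.05, and DESeq2 placed 532 (3.93% of the 13526 genes to which it gave an adjusted p). In 51.1% of genes both double knockout libraries were above both wild type libraries, or both were below them. Mrtfa was at 3.35 and 2.26 CPM (counts scaled to the library total, with TMM factors) in double knockout libraries, against 9.06 and 11.1 CPM in wild type libraries (log2 fold change -1.82; edgeR adjusted p = 0.12, DESeq2 adjusted p = 1.25e-05). Mrtfb was at 46.0 and 49.5 CPM in double knockout libraries, against 46.9 and 56.8 CPM in wild type libraries, and a count over a whole gene checks nothing about a partial deletion. Markers of cardiomyocytes summed to 34836.5 and 30439.8 CPM in double knockout libraries and to 36540.6 and 37174.8 CPM in wild type libraries. The 3 lens markers, included because Cryab is also a lens protein, did not pass the low count filter.

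Of the 8 genes, Hspb6 stood apart: its level in double knockout hearts was 0.383 of that in wild type hearts. The other 7 had overlapping groups, and their mean levels in double knockout hearts were between 0.763 and 1.155 of those in wild type hearts. EdgeR called 0 of the 8, where it called 0.0125% of all genes higher and 0.0625% lower. DESeq2 called 1 of the 8, Hspb6, as lower and 0 as higher, where it called 1.86% of all genes lower and 2.08% higher. Unadjusted, edgeR gave p under 0.05 for 1 of the 8, again Hspb6 as lower, against 17.3% of all genes in either direction and 8.63% lower. Without a filter on low counts edgeR called 1 of the 8, Hspb6, against 6.07% of genes. Both double knockout libraries were below both wild type libraries in 1 of the 8 genes and above in 0, against 25.2% and 25.8% of all genes. In bulk tissue, fewer cells of a type and less RNA per cell cannot be told apart. The median log2 fold change of the 8 genes was 0.07, beside 0.01 over all genes tested.

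**Figure D1:**
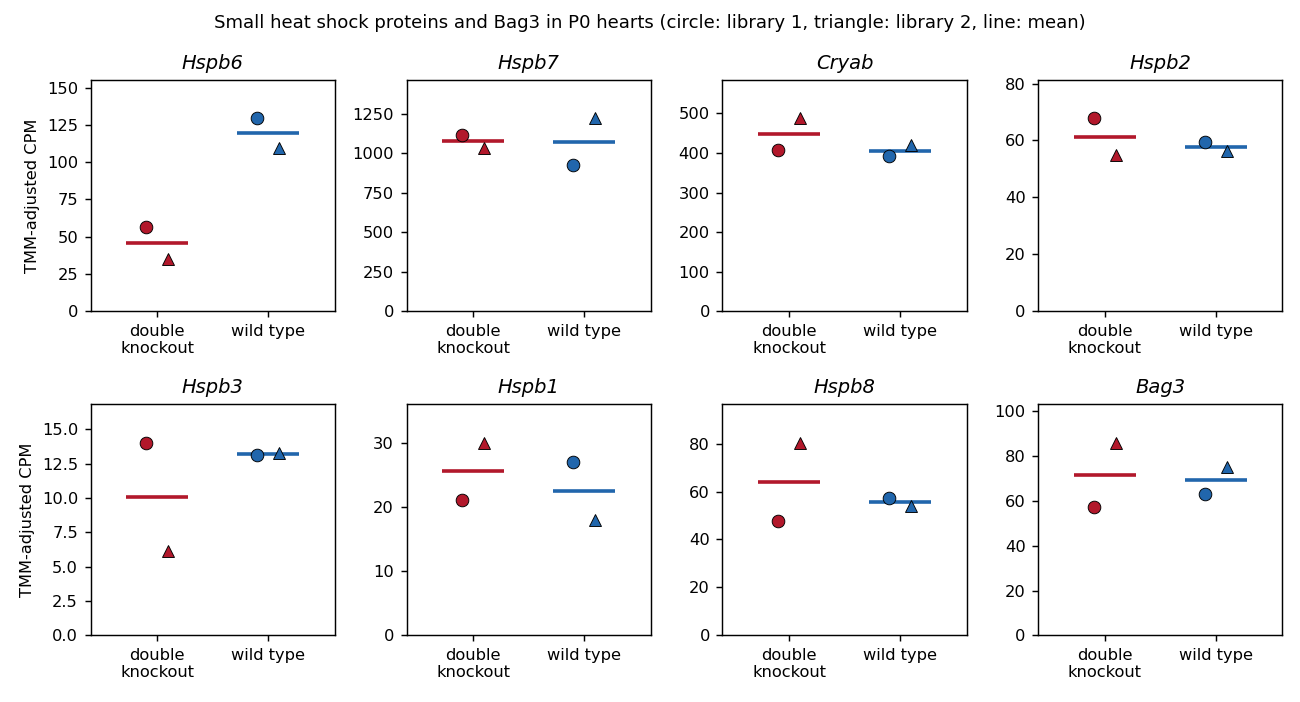
TMM-adjusted CPM of each gene (vertical axis, starting at 0) in the double knockout libraries (red) and the wild type libraries (blue), with the group mean as a line. Hspb6 is at 56.7 and 35.0 CPM in double knockout libraries and at 129.4 and 109.7 CPM in wild type libraries, while the groups overlap in the other 7 panels.

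Hspb6 (ENSMUSG00000036854, chromosome 7, 30552178 to 30555443, plus strand, mm10, 5 merged exons) encodes HSP20, which is phosphorylated by cyclic nucleotide-dependent kinases and is known for its part in smooth muscle relaxation and cardiac contraction. Its counts were 1607 and 572 in double knockout libraries 1 and 2, and 3673 and 2731 in wild type libraries 1 and 2. That is 56.7 and 35.0 CPM in double knockout hearts, against 129.4 and 109.7 CPM in wild type hearts. Both double knockout libraries were below both wild type libraries, an order found in 25.2% of all genes. The log2 fold change was -1.38 (SE 0.24, 95% interval -1.99 to -0.76), the 153rd lowest of 16009 genes. It did not pass edgeR over all genes (adjusted p = 0.14) and passed DESeq2 (adjusted p = 2.33e-05). Over 14 alternative settings the log2 fold change stayed between -1.78 and -1.08. Among those that kept all 4 libraries, the adjusted p was under 0.05 without a filter and in DESeq2. With double knockout library 1 or 2 left out the log2 fold change was -1.78 or -1.08. With wild type library 1 or 2 left out it was -1.26 or -1.51.

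Part of the Hspb6 annotation overlaps other genes on the opposite strand. Its exons share 122 bases with Proser3 and 3 bases with Lin37, which is 5.3% and 0.1% of the merged Hspb6 exon length. The strand setting of the counting is not known, so reads in those bases cannot be assigned. On the same strand as Hspb6, the miRNA gene Gm38670, not analysed here, shares 77 exonic bases with it. Proser3 was at 8.36 and 7.89 CPM in double knockout libraries, against 5.78 and 6.27 CPM in wild type libraries. Lin37 was at 6.14 and 6 CPM in double knockout libraries, against 4.05 and 5.22 CPM in wild type libraries. For both neighbours the double knockout libraries were above the wild type libraries, an order found in 25.8% of all genes.

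Smooth muscle also expresses HSP20 and is part of the whole heart. The 5 smooth muscle markers (Myh11, Tagln, Cnn1, Smtn and Acta2) summed to 686.5 and 592.7 CPM in double knockout libraries, against 3206 and 1711 CPM in wild type libraries, with a median log2 fold change of -0.75. All 5 had both double knockout libraries below both wild type libraries, as did 25.2% of all genes, and DESeq2 called 3 of them lower, beside 1.86% of all genes. None was at 0, and Acta2, smooth muscle actin, made up most of the sum at 535 and 439 CPM in double knockout libraries, against 2962 and 1468 CPM in wild type libraries. Smtn, smoothelin of contractile smooth muscle, was at 53.7 and 49.2 CPM in double knockout libraries, against 84.4 and 88.8 CPM in wild type libraries. Cnn1, calponin, was at 20.4 and 11.8 CPM in double knockout libraries, against 49.0 and 41.2 CPM in wild type libraries. DESeq2 did not call Myh11 or Tagln. Myh11 was at 18.9 and 15.4 CPM in double knockout libraries, against 19.9 and 30.7 CPM in wild type libraries, with library 1 of each group close. Tagln was at 58.5 and 77.0 CPM in double knockout libraries, against 91.3 and 81.8 CPM in wild type libraries. The sum of the 5 thus describes mainly Acta2. The 5 atrial markers summed to 1410.0 and 1252 CPM in double knockout libraries, against 623 and 939 CPM in wild type libraries. The skeletal muscle markers summed to 1084 and 1247 CPM in double knockout libraries, against 2083 and 1962 CPM in wild type libraries, nearly all of it Ckm. Myod1 had 0 counts in every library, and Myh1, Myh2, Myh4 and Myog also did not pass the low count filter. The sum thus describes Ckm and not the amount of skeletal muscle. MRTFA and MRTFB are coactivators of SRF, which drives actin and other muscle genes, so the smooth muscle markers may not track cell number here. Fewer cells and less RNA per cell cannot be told apart. The part of these marker shifts in the Hspb6 result was not tested.

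A start region of Hspb6 is shown with those of Hspb1, Hspb8 and Bag3 because all 4 hold the same 8 letters, GAAGTTTC. Heat shock factors bind runs of inverted GAA repeats in the heat shock element, and GAAGTTTC holds an inverted pair of them. Longer runs were not searched for, so the letters are not shown to be a heat shock element. The windows run from 250 bases before to 50 bases after a RefSeq start (build GRCm38.p6), and 6 of the 8 genes matched in 7 windows. A RefSeq start can differ from the gene start given in this text. Hspb6 has 2 windows, and the one shown lies downstream of the other (chr7:30552290-30552589), inside the gene span given above. Capitals mark every GAANNTTC or TTCNNGAA, searched on both strands, on which each pattern reads the same. The windows lie at chr7:30553051-30553350 (plus strand) for Hspb6, chr5:135887669-135887968 (plus strand) for Hspb1, chr5:116422815-116423114 (minus strand) for Hspb8, chr7:128523333-128523632 (plus strand) for Bag3.
Hspb6: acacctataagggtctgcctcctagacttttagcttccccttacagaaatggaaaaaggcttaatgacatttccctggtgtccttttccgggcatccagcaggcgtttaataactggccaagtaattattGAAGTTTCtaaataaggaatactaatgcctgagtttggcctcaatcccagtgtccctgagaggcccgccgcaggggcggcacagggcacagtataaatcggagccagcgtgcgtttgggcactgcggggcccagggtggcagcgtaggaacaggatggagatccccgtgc
Hspb1: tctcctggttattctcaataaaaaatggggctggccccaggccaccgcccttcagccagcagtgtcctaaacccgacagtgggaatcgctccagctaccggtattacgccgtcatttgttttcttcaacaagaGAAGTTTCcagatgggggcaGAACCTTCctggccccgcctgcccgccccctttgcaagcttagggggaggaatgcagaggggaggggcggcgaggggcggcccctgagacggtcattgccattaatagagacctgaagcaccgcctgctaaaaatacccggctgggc
Hspb8: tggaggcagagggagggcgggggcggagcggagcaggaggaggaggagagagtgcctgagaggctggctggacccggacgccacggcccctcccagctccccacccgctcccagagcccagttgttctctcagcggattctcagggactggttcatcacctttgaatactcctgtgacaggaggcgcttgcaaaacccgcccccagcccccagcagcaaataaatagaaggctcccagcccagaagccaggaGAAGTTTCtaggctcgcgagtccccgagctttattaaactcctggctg
Bag3: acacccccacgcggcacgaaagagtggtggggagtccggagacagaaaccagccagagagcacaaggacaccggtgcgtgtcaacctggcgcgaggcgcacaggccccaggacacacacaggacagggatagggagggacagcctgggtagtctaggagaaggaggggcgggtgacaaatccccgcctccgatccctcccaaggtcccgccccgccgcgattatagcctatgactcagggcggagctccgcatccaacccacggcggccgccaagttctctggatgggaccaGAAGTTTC

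The shared letters began at position -120 in Hspb6, -117 in Hspb1, 2 in Hspb8 and 42 in Bag3, counted from the RefSeq start of each printed window as 0. The shared form was noticed after the windows were read, and GAAGTTTC or its reverse complement occurs in 1.21% of 32817 RefSeq windows of the same length. Hspb1 holds a further match, GAACCTTC, at -97, and Hspb3 holds GAATTTTC at -224. GAANNTTC or TTCNNGAA occurs in 15.05% of all windows, so a match is common and is a description only. The Hspb7 window and the other Hspb6 window held no match to either form. The CArG box, the motif that SRF binds, was in none of the 7 windows and in 1.63% of all windows, which says only that these letters are not in these stretches. Among the 4 genes with GAAGTTTC the log2 fold change was -1.38 for Hspb6, 0.18 for Hspb1, 0.20 for Hspb8 and 0.05 for Bag3.

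The most abundant of the 8 was Hspb7, followed by Cryab and Hspb2, on a scale that allows for gene length (TPM, from the counts and the merged exon lengths of GENCODE M21). Hspb7 averaged 1293 ± 86.7 TPM in double knockout hearts and 1166 ± 240 TPM in wild type hearts (SD, n = 2 libraries each). Cryab averaged 1007 ± 112 TPM in double knockout hearts and 825 ± 46.9 TPM in wild type hearts, and Hspb2 averaged 245 ± 40.2 TPM in double knockout hearts and 208 ± 5.94 TPM in wild type hearts. The ranges of these 3 levels did not overlap each other within either group. Hspb6 was next in wild type hearts, at 145 to 168 TPM and apart from its neighbours in the order. In double knockout hearts it was seventh, at 50.1 to 82.9 TPM, with a range that overlapped those of Hspb1 above it and Hspb3 below it. Hspb8, Bag3 and Hspb1 held adjacent ranks in both groups, and each overlapped the next.

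**Figure D2:**
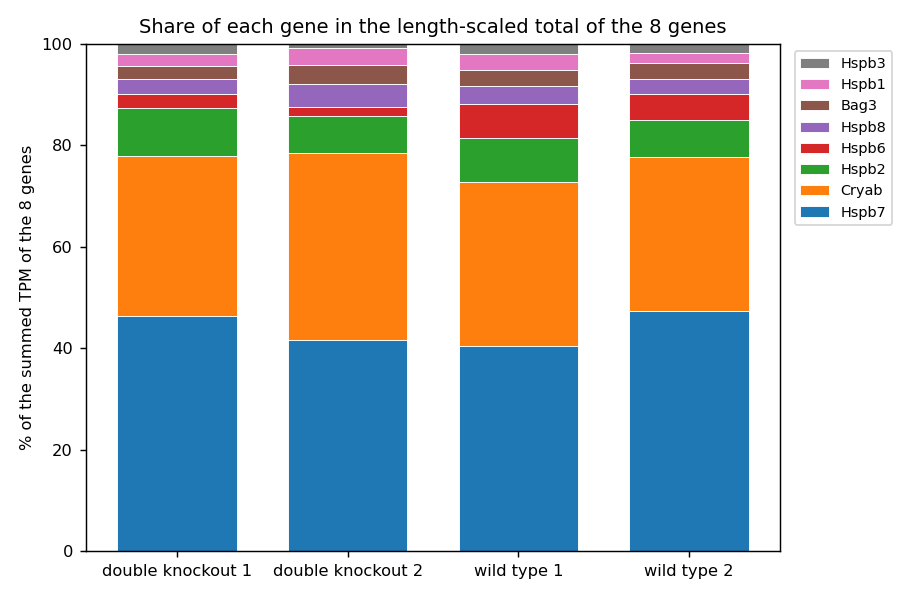
Share of each gene in the summed TPM of the 8 genes (vertical axis, percent), 1 bar per library. Hspb6 makes up 2.83% and 1.70% in double knockout libraries against 6.83% and 5.13% in wild type libraries, and Hspb7 with Cryab fill most of every bar.

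Summed over the 8 genes, length-scaled levels were 2926 and 2953 TPM in double knockout libraries, against 2458 and 2820 TPM in wild type libraries. Hspb7 held 46.3% and 41.7% of that sum in double knockout libraries and 40.5% and 47.4% in wild type libraries. Cryab held 31.7% and 36.8% in double knockout libraries and 32.2% and 30.4% in wild type libraries. The TPM ratio of Hspb6 to Hspb7 was 0.0612 and 0.0407 in double knockout libraries, against 0.169 and 0.108 in wild type libraries. The ratio of Hspb6 to Cryab was 0.0893 and 0.0462 in double knockout libraries, against 0.212 and 0.169 in wild type libraries. Within a library these ratios do not depend on the scaling between libraries, and both were lower in both double knockout hearts than in both wild type hearts.

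Hspb7 (chromosome 4, 141420779 to 141425311, plus strand) encodes the cardiac small heat shock protein that binds actin monomers and filamin. It was at 1115 and 1035 CPM in double knockout libraries, against 925 and 1220 CPM in wild type libraries. The double knockout values lay between the wild type values. The log2 fold change was 0.00 (SE 0.16, 95% interval -0.40 to 0.40; edgeR adjusted p = 0.995). Its sign changed with upper-quartile scaling and without a filter.

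Cryab (chromosome 9, 50751325 to 50756636, plus strand) encodes alpha B-crystallin, a chaperone of desmin and titin. It was at 408 and 488 CPM in double knockout libraries, against 393 and 419 CPM in wild type libraries. Double knockout library 1 lay within the wild type range and library 2 above it. The log2 fold change was 0.14 (SE 0.13, 95% interval -0.18 to 0.47; edgeR adjusted p = 0.621), so a change as large as that of Hspb6 lies outside the interval in either direction.

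Hspb2 (chromosome 9, 50751078 to 50752354, minus strand) encodes a partner of HSPB3 first described as a binder of myotonic dystrophy kinase. It lies beside Cryab and is read from the opposite strand. It was at 67.8 and 54.8 CPM in double knockout libraries, against 59.4 and 56.1 CPM in wild type libraries. One double knockout library was above and the other below both wild type libraries, and the log2 fold change was 0.09 (SE 0.13, 95% interval -0.24 to 0.42; edgeR adjusted p = 0.778). In GENCODE M21 the exons of Hspb2 and Cryab share 252 bases, which is 30.2% of the Hspb2 length and 17.0% of the Cryab length, so reads there cannot be told apart without strand. The TPM ratio of Hspb2 to Cryab was 0.294 and 0.199 in double knockout libraries, against 0.268 and 0.238 in wild type libraries, and the groups overlapped.

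Hspb3 (chromosome 13, 113662896 to 113663676, minus strand) has a single exon and was the lowest of the 8. It was at 14.04 and 6.12 CPM in double knockout libraries, against 13.1 and 13.3 CPM in wild type libraries. Double knockout library 1 was above both wild type libraries and library 2, with 100 counts, was below them. The log2 fold change was -0.37 (SE 0.38, 95% interval -1.33 to 0.59; edgeR adjusted p = 0.662). Without double knockout library 1 it was -1.11, and without library 2 it was 0.09, so 1 library decides it.

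Hspb1 (chromosome 5, 135887919 to 135889563, plus strand) encodes HSP27, called HSP25 in mice, which binds actin and intermediate filaments. It was at 21.1 and 30.0 CPM in double knockout libraries, against 27.0 and 18.0 CPM in wild type libraries. The groups overlapped, and the log2 fold change was 0.18 (SE 0.26, 95% interval -0.47 to 0.82; edgeR adjusted p = 0.764). Its transcript is 99.4% identical over 630 bases to the pseudogene Hsp25-ps1 and 99.8% identical over 493 bases to Gm9817. The treatment of reads matching more than 1 place is not known, so the level of Hspb1 is uncertain. Hsp25-ps1 had 6 and 4 counts in double knockout libraries, against 3 and 4 in wild type libraries.

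Hspb8 and Bag3 encode the chaperone and the scaffold of the same complex. Hspb8 (chromosome 5, 116408491 to 116422864, minus strand) was at 47.9 and 80.4 CPM in double knockout libraries, against 57.2 and 53.9 CPM in wild type libraries. Bag3 (chromosome 7, 128523616 to 128546981, plus strand) was at 57.6 and 86.1 CPM in double knockout libraries, against 63.4 and 75.1 CPM in wild type libraries. For both genes double knockout library 1 was the lowest of the 4 libraries and library 2 the highest. The log2 fold changes were 0.20 for Hspb8 (SE 0.25, 95% interval -0.42 to 0.83; edgeR adjusted p = 0.715) and 0.05 for Bag3 (SE 0.21, 95% interval -0.47 to 0.57; edgeR adjusted p = 0.926). Without double knockout library 1 the Hspb8 value was 0.53, and without library 2 it was -0.22. For Bag3 the values were 0.31 and -0.27. The TPM ratio of Hspb8 to Bag3 was 1.093 and 1.227 in double knockout libraries, against 1.185 and 0.943 in wild type libraries.

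**Figure D3:**
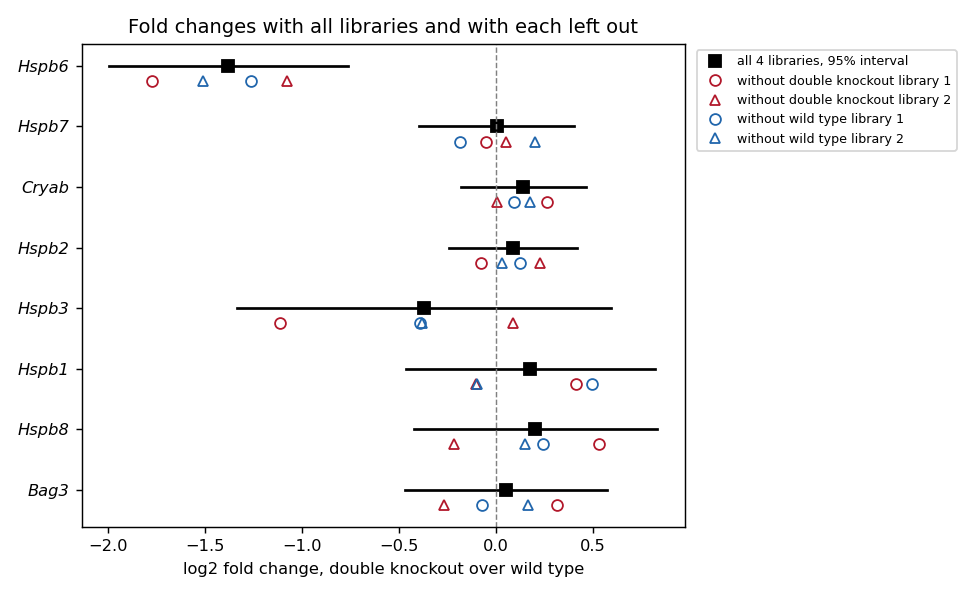
Log2 fold changes of double knockout over wild type (horizontal axis) from edgeR with all 4 libraries (black squares, bars for the 95% interval) and with 1 library left out (open symbols). Every Hspb6 symbol lies below 0, between -1.78 and -1.08. The symbols of Hspb7, Hspb2, Hspb3, Hspb1, Hspb8 and Bag3 fall on both sides of 0. Those of Cryab lie above 0, the lowest at 0.0064.

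The double knockout libraries differed from each other more than the wild type libraries in 6 of the 8 genes, the exceptions being Hspb7 and Hspb1. The share of all genes with this order was not counted. Over all genes tested, log2 CPM correlated at 0.974 between the double knockout libraries and at 0.99 between the wild type libraries. Chi-square per gene was 36.1 and 15.2, so the wider gap is not particular to these genes. Library 2 over library 1 gave a ratio of 1.678 for Hspb8 (95% counting interval 1.555 to 1.812), 1.496 for Bag3 (1.392 to 1.607), 1.427 for Hspb1 (1.264 to 1.61) and 1.195 for Cryab (1.161 to 1.23) in double knockout hearts. The same ratio in wild type hearts was 0.943 for Hspb8, 1.185 for Bag3, 0.669 for Hspb1 and 1.067 for Cryab. In the other direction, library 2 over library 1 was 0.436 for Hspb3 (0.347 to 0.544) and 0.617 for Hspb6 (0.56 to 0.68) in double knockout hearts, and 1.015 for Hspb3 and 0.848 for Hspb6 in wild type hearts. The intervals are exact binomial ones and cover counting error only, and the reads carry no molecular identifiers in the sources used here. Gaps as large as that of Hspb3 were found in 5.55% of all genes between the double knockout libraries, as large as that of Hspb8 in 13.7% and as large as that of Bag3 in 19.8%.

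**Figure D4:**
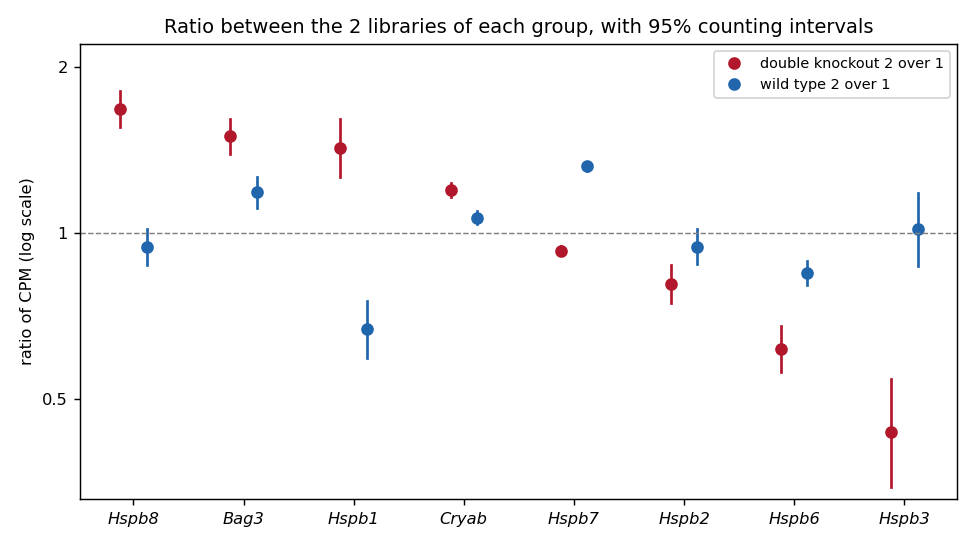
Ratio of CPM between library 2 and library 1 (vertical axis, log scale) in double knockout hearts (red) and wild type hearts (blue), with 95% counting intervals. Hspb8 at 1.678 and Bag3 at 1.496 are highest in the double knockout pair and Hspb3 at 0.436 is lowest.

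The genes whose profile over the 4 libraries was most like that of Bag3, by the root mean square difference of centred log2 CPM, were Ssu2 (0.014), Synpo (0.021) and Nnmt (0.028). Synpo, which encodes the actin-binding synaptopodin, was at 45.9 and 68.2 CPM in double knockout libraries, against 50.4 and 61.8 CPM in wild type libraries. For Cryab they were Arid1b (0.0065), Txndc17 (0.0074) and Pip5k1a (0.0086). Flnc, which encodes filamin C of the Z-disc, was the second most like Hspb8 (0.025), at 345 and 588 CPM in double knockout libraries, against 432 and 399 CPM in wild type libraries. These are descriptions over 4 libraries and 16009 genes, with no test. Hspb8 was not among the genes for which the rule named neighbours, so Flnc was chosen after its value was seen.

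The autophagy route that HSPB8 and BAG3 feed was described by a list of 13 tested genes. DESeq2 called 3 of them higher and 0 lower, beside 2.08% higher and 1.86% lower over all genes, edgeR called 0, and the median log2 fold change was 0.17. Sqstm1, the receptor p62, was at 248 and 408 CPM in double knockout libraries, against 148 and 180 CPM in wild type libraries (log2 fold change 0.999, SE 0.257; DESeq2 adjusted p = 0.00824). Gabarapl1, of the autophagosome membrane, was at 45.0 and 86.3 CPM in double knockout libraries, against 29.6 and 30.8 CPM in wild type libraries (DESeq2 adjusted p = 0.0128). Map1lc3b, also of that membrane, was at 94.5 and 120 CPM in double knockout libraries, against 69.1 and 71.0 CPM in wild type libraries (DESeq2 adjusted p = 0.0391). In each of these genes both double knockout libraries were above both wild type libraries, an order found in 25.8% of all genes. Double knockout library 2 was the highest in each. These genes were named for their small p or DESeq2 calls, which favour this order. Each of them also shares identical or near-identical exon sequence with another annotated gene, over 583 bases for Sqstm1, 379 for Gabarapl1 and 378 for Map1lc3b, so their levels are uncertain.

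Other parts of the complex did not pass either test. Hspa8, the constitutive HSP70, was at 114.5 and 147 CPM in double knockout libraries, against 102 and 137 CPM in wild type libraries. It resembles 9 other annotated genes, up to 96.5% identical over 1947 bases, so its level is uncertain. Stub1, the ubiquitin ligase CHIP, was at 19.2 and 16.0 CPM in double knockout libraries, against 21 and 20.1 CPM in wild type libraries, and its level is uncertain because it shares 532 identical bases with Jmjd8. Synpo2, which ties BAG3 to the autophagosome-forming machinery, was at 97.6 and 42.9 CPM in double knockout libraries, against 97.9 and 130 CPM in wild type libraries (log2 fold change -0.69, SE 0.41). For Stub1 and Synpo2 both double knockout libraries were below both wild type libraries, an order found in 25.2% of all genes. For Synpo2, however, library 1 of each group was nearly the same. Values were seen before these 3 genes were picked.

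Among 11 tested HSP70 and HSP110 genes, 0 passed edgeR and 0 passed DESeq2, with 4 positive and 7 negative fold changes and a median of -0.13. At an unadjusted edgeR p under 0.05, 0 were higher and 4 lower, beside 8.63% lower over all genes. Hsph1, an exchange factor of HSP70 and a heat shock gene, was at 26.8 and 27.2 CPM in double knockout libraries, against 42.1 and 36.8 CPM in wild type libraries (log2 fold change -0.55, SE 0.13; DESeq2 adjusted p = 0.0676). Hspa4, a relative of Hsph1, was at 232 and 249 CPM in double knockout libraries, against 349 and 296 CPM in wild type libraries. Hspa9, the mitochondrial HSP70, was at 820 and 889 CPM in double knockout libraries, against 1201 and 1044 CPM in wild type libraries, and is 96.0% identical to a pseudogene over 302 bases. The stress-inducible Hspa1a had 4 and 9 counts in double knockout libraries, against 3 and 7 in wild type libraries, and Hspa1b was at 0.564 and 0.734 CPM in double knockout libraries, against 0.423 and 0.522 CPM in wild type libraries. These 2 genes are 99.2% identical over 2201 bases, so their levels are uncertain, and both were picked with their values in view.

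Heat shock factors drive chaperone genes under stress, and their list held Hsf1, Hsf2, Hsf4 and Hsbp1, of which 0 passed edgeR or DESeq2 and 0 had an unadjusted edgeR p under 0.05. Hsf1 was at 14.7 and 14.8 CPM in double knockout libraries, against 20.5 and 17.4 CPM in wild type libraries. Hsf2 was at 49.4 and 51.0 CPM in double knockout libraries, against 42.7 and 45.9 CPM in wild type libraries. Hsbp1, a binder of HSF1, was at 92.9 and 80.4 CPM in double knockout libraries, against 89.7 and 96.6 CPM in wild type libraries. Dnajb1, the HSP40 that stress induces with HSP70, was chosen after its values were seen and was at 28.6 and 30.1 CPM in double knockout libraries, against 29.8 and 30.1 CPM in wild type libraries (log2 fold change -0.03, SE 0.12).

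Of 5 other BAG domain genes, 0 passed edgeR or DESeq2. Bag2, an inhibitor of CHIP, was at 31.3 and 31.2 CPM in double knockout libraries, against 48.4 and 43.1 CPM in wild type libraries (log2 fold change -0.55, SE 0.12; edgeR adjusted p = 0.154, DESeq2 adjusted p = 0.0513). Bag1 was at 96.4 and 97.9 CPM in double knockout libraries, against 109.0 and 109.3 CPM in wild type libraries. Bag6 was at 109.3 and 127 CPM in double knockout libraries, against 120 and 122 CPM in wild type libraries. For Bag2 and Bag1 both double knockout libraries were below both wild type libraries, an order found in 25.2% of all genes. The difference from Bag3 was not tested.

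**Figure D5:**
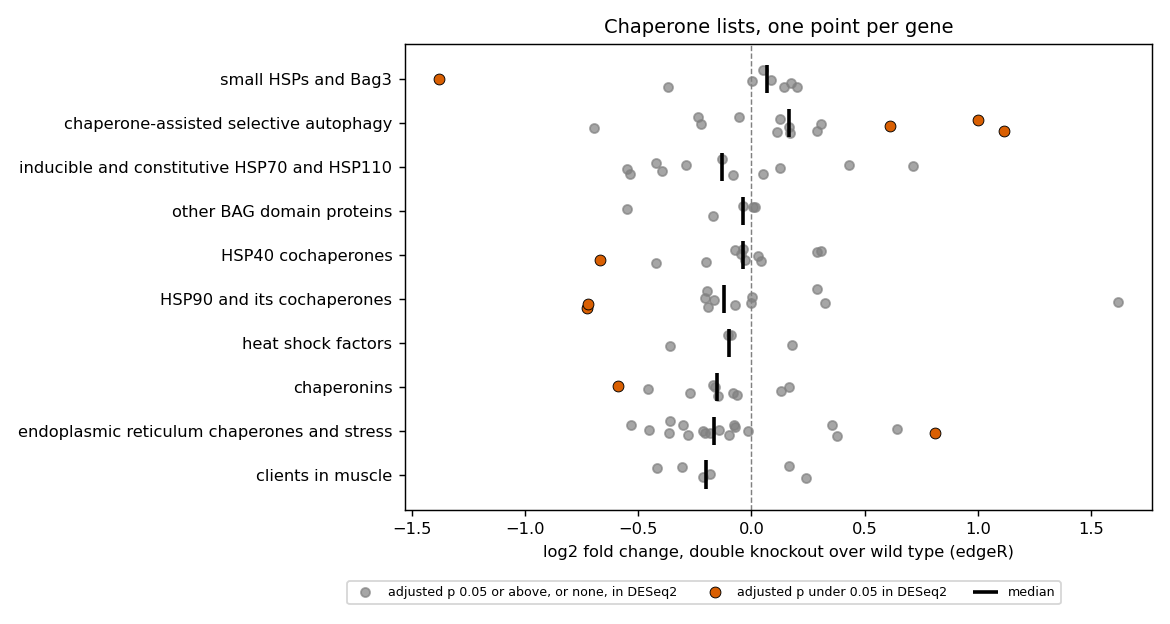
Log2 fold changes of double knockout over wild type in edgeR (horizontal axis) for each tested gene of the chaperone lists, with the list median as a bar and genes past the DESeq2 threshold in orange. Hspb6 at -1.38 is the lowest point of all lists shown, and the 3 orange points of the autophagy list lie at 0.61 to 1.12.

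In the HSP90, HSP40 and chaperonin lists DESeq2 called 4 genes lower and 0 higher, beside 1.86% lower and 2.08% higher over all genes. Of 12 genes of the HSP90 list it called 2. Stip1, which links HSP70 to HSP90, was at 96.3 and 84.7 CPM in double knockout libraries, against 156 and 143 CPM in wild type libraries (DESeq2 adjusted p = 0.00151). Fkbp4, an HSP90 immunophilin, was at 169 and 124 CPM in double knockout libraries, against 250.2 and 235 CPM in wild type libraries (DESeq2 adjusted p = 0.0164). Hsp90ab1, the constitutive HSP90, was at 1507 and 1892 CPM in double knockout libraries, against 1338 and 1377 CPM in wild type libraries, and did not pass. Of 11 HSP40 genes DESeq2 called 1, the mitochondrial Dnaja3, at 90.6 and 79.1 CPM in double knockout libraries, against 144 and 126 CPM in wild type libraries (DESeq2 adjusted p = 0.00822). Of 10 chaperonin genes it called 1, the mitochondrial Hspd1, at 155 and 140.3 CPM in double knockout libraries, against 246 and 198.5 CPM in wild type libraries (DESeq2 adjusted p = 0.0405), and a pseudogene is 99.0% identical to it over 1722 bases. For these 4 genes both double knockout libraries were below both wild type libraries, an order found in 25.2% of all genes. They were named for their small p or DESeq2 calls, which favour this order. Hspe1, the partner of Hspd1, was at 24.7 and 31.4 CPM in double knockout libraries, against 43.1 and 33.6 CPM in wild type libraries, and also has a near-identical copy. Dnajb14 was at 37.6 and 33.2 CPM in double knockout libraries, against 49.4 and 45.6 CPM in wild type libraries, and it resembles 23 other annotated genes over stretches of up to 211 bases. Dnajb4 was at 115 and 109.4 CPM in double knockout libraries, against 129 and 129 CPM in wild type libraries. Cct3 of the cytosolic chaperonin was at 182 and 191 CPM in double knockout libraries, against 244 and 205 CPM in wild type libraries. These 4 genes passed neither test. The list medians were -0.12 for HSP90, -0.04 for HSP40 and -0.15 for the chaperonins, and edgeR called 0 genes in each. Its counts at an unadjusted p under 0.05 were 2 lower and 0 higher in each of the 3, beside 8.63% lower over all genes.

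The proteins that small heat shock proteins protect in muscle formed a list of 6 with a median of -0.20, of which 0 passed edgeR or DESeq2. Des, desmin, was at 639 and 685 CPM in double knockout libraries, against 813.5 and 723 CPM in wild type libraries, and shares 222 identical bases with Gm15179. Ttn, titin, was at 7514 and 7421 CPM in double knockout libraries, against 9727 and 8738 CPM in wild type libraries. Capzb, the capping protein that BAG3 and HSP70 hold at the Z-disc, was at 193 and 184 CPM in double knockout libraries, against 264.5 and 238 CPM in wild type libraries (log2 fold change -0.42, SE 0.11; edgeR adjusted p = 0.179). In Des, Ttn and Capzb, which had the smallest edgeR p of the list, both double knockout libraries were below both wild type libraries. That order was found in 25.2% of all genes. Of the whole list, 4 fold changes were negative and 2 positive, those of Vim (0.24) and Flnc (0.17), whose groups overlapped. Of the other small heat shock genes only Hspb11, a ciliary transport protein in spite of its name, was tested. It was at 7.02 and 7.34 CPM in double knockout libraries, against 4.69 and 4.86 CPM in wild type libraries, and is 95.5% identical to Gm49238 over 223 bases. Hspb9 had 3 and 7 counts in double knockout libraries, against 4 and 7 in wild type libraries. Cryaa, the lens partner of Cryab, had 2 and 0 counts in double knockout libraries and 0 counts in both wild type libraries.

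SRF itself and its coactivator myocardin were also measured. Srf was at 71.9 and 79.4 CPM in double knockout libraries, against 111 and 85.6 CPM in wild type libraries (log2 fold change -0.38, SE 0.15; edgeR adjusted p = 0.284). Myocd was at 133 and 188 CPM in double knockout libraries, against 140.3 and 160 CPM in wild type libraries (log2 fold change 0.09, SE 0.18; edgeR adjusted p = 0.827). Both Srf values were lower in double knockout libraries than in wild type libraries, an order found in 25.2% of all genes. The Myocd values overlapped.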

How the data were processed

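Read counts of P0 heart RNA were analysed in 2 libraries per group. The authors deposited raw counts per Ensembl gene, made with HTSeq on build mm10, per the submitters' processing notes, which also name DESeq 1.10.1. Aligner, annotation release, strand setting and the treatment of multiply matching reads are not given in the sources. Symbols, positions and exon lengths came from GENCODE M21 (42462 of 43346 identifiers matched), and 0 rows named no gene.

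EdgeR 4.0.16 (R 4.3.3) gave the quasi-likelihood test, with filterByExpr defaults, TMM factors, robust estimation, no covariate, and Benjamini-Hochberg adjustment over 16009 genes at a threshold of 0.05. The alternatives were RLE, upper-quartile or no composition factors; no filter, or one asking for CPM above 1 throughout a group and a mean of 50 counts; DESeq2 1.42.0; limma-voom (limma 3.58.1); no robust estimation; a replicate block; removal of mitochondrial and globin genes; and leaving out each library. The edgeR step was tested on simulated counts: it recovered the fold changes put in, and with the dispersions estimated from these libraries the share of false calls was above the nominal threshold. A count of 3 equals 0.106 to 0.184 CPM. TPM used merged exon lengths.

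Near-identical sequence meant at least 95% identity over 100 bases (200 for pathway genes). Libraries of a group differed beyond sampling noise (chi-square per gene 36.1 in double knockout, 15.2 in wild type).

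The genes followed and the gene lists were chosen with earlier results of these data known. The rule named the 8 genes, Srf, Mrtfa, Mrtfb, Myocd, genes within 2000 bases of the 8, and from each pathway list the 3 genes with the smallest edgeR p and any call by edgeR or DESeq2. For Bag3 and Cryab it named the 3 genes with the most similar profile (log2 CPM with a prior count of 0.5). Any further gene was picked with its values in view, named marker genes and the 4 printed promoter windows among them.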

Additional observations from a re-analysis of the deposited data

How the results depend on the processing

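Over 14 alternatives the log2 fold change of Hspb6 kept its direction. Among alternatives that kept every library, Hspb6 passed the threshold without a filter (-1.393) and in DESeq2 (-1.384). With 1 library left out its values ranged from -1.775 to -1.079. Cryab also kept its direction, but was at 0.0064 without double knockout library 2. Hspb7 turned to -0.004 with upper-quartile factors and -0.0114 without a filter. With 1 library left out, values ranged from -0.10 to 0.49 for Hspb1, -0.0776 to 0.229 for Hspb2, -1.11 to 0.0864 for Hspb3, -0.19 to 0.20 for Hspb7, -0.22 to 0.53 for Hspb8 and -0.27 to 0.31 for Bag3. The cause of these sign changes was not tested.

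The number of the 8 genes past the threshold was 0 in edgeR, 1 without a filter, 1 in DESeq2 and 0 to 3 with 1 library left out, the 3 being Hspb6, Hspb3 and Hspb8 without double knockout library 1. Over all genes it was 12, against 1514 without a filter, 532 in DESeq2 and 2 with a replicate block. With 1 library left out it was 2 to 2795 over all genes. The 2795 were also without double knockout library 1, where calls were thus common. For the pathway lists the number was 0, against 18 without a filter, 9 in DESeq2 and 0 to 32 with 1 library left out. A group left with 1 library is assumed to vary like the other group.

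The labels number the replicates and do not say whether same-numbered libraries share a preparation. Deviations of same-numbered libraries correlated at -0.096, which with 2 libraries in each group can neither show nor exclude a shared batch. The replicate block gave Hspb6 -1.417 (edgeR adjusted p = 0.079). Depth limits Hspb3 most, with 100 counts in double knockout library 2.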

Other observations

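Genes of the endoplasmic reticulum stress response formed a chaperone list that the account above leaves out. Of its 18 tested genes DESeq2 called 1 higher and 0 lower, beside 2.08% higher and 1.86% lower over all genes. The gene called was Herpud1, a membrane protein of the degradation machinery. It was at 96.8 and 140 CPM in double knockout libraries, against 62.7 and 72.3 CPM in wild type libraries (log2 fold change 0.81, SE 0.20; DESeq2 adjusted p = 0.0189). Ddit3, the stress transcription factor CHOP, was at 21.5 and 25.02 CPM in double knockout libraries, against 15.0 and 14.7 CPM in wild type libraries (DESeq2 adjusted p = 0.0553). Atf4, which drives Ddit3, was at 88.5 and 96.9 CPM in double knockout libraries, against 75.9 and 66.8 CPM in wild type libraries (DESeq2 adjusted p = 0.253). Among chaperones of the same list, which passed neither test, Hspa5, the lumenal HSP70, was at 637 and 439 CPM in double knockout libraries, against 766 and 614 CPM in wild type libraries, and the groups overlapped. Hyou1 was at 49.3 and 39.8 CPM in double knockout libraries, against 65.0 and 56.9 CPM in wild type libraries. Dnajb9 was at 37.7 and 43.1 CPM in double knockout libraries, against 33.2 and 29.8 CPM in wild type libraries. The list median was -0.16, with 4 positive and 14 negative fold changes. At an unadjusted edgeR p under 0.05, 4 were higher and 1 lower, beside 17.3% of all genes in either direction. Hspa5, Hyou1 and Dnajb9 were chosen after their values were seen.

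The double knockout libraries differed widely in 2 cochaperones that were picked with their values in view. Fkbp5, an HSP90 immunophilin that glucocorticoids induce, was at 24.8 and 132 CPM in double knockout libraries, against 27.4 and 23.1 CPM in wild type libraries. Dnajb5, an HSP40 gene, was at 36.2 and 84.7 CPM in double knockout libraries, against 72.2 and 45.6 CPM in wild type libraries. For Fkbp5 double knockout library 2 lay above the other 3 libraries, and for Dnajb5 the wild type libraries also lay apart, between the double knockout values.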
